A study of Mus musculus with 50 samples.

Results

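A set of 79 mouse genes of the cell cycle and of DNA replication was followed in RNA from lungs and airways exposed to interleukin-13 (IL-13) or to the allergen ovalbumin (OVA). The rule that picks them reads only gene symbols of the platform annotation, no measured values: Mcm2 to Mcm7, the A, B and E cyclins with Cdk1, the named Cdc genes, the Bub, Cenp and Aurk families, Orc, Rfc, Pola, Pold, Pole and Prim genes, 6 mitotic kinesins, and Plk1, Top2a, Mki67, Birc5, Rrm1, Rrm2, Tyms and Pcna. The 79 genes were on both array platforms, among 13409 genes with 1 symbol on the larger and 13509 on the smaller platform. They were measured by 84 probes on each, of 18272 and 18057 probes in all. By role, 34 genes serve chromosomes and mitosis, 20 the replication fork, 13 the licensing of origins and 3 the supply of nucleotides, and 9 are cyclins, Cdk1 or factors that act on it. Ccnb1, the main mitotic B cyclin, had no probe.

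The data were 50 spotted arrays with 2 colours, 5 in each of 10 groups, each array giving the log2 ratio of a sample to a reference RNA. The samples were tracheal perfusate or whole lung from mice labelled IL-13 Stat6+/-, IL-13 Stat6-/-, IL-13 Stat6-/- Epi+, OVA or PBS, the saline control. Stat6 is the transcription factor that carries the IL-13 signal to the nucleus. The labels give only the mark Epi+, and in mice of this design it stands for a transgene, driven from a club cell promoter, that returns Stat6 to the airway lining. All IL-13 groups carried IL-13, and no group labelled with one of those genotypes was measured without it. The labels do not give the Stat6 genotype of the OVA and PBS mice, nor age or sex. A difference of an IL-13 group from PBS or OVA therefore holds the cytokine and may hold genotype and strain. Their shares cannot be told apart. Perfusate RNA had been amplified in 1 round and whole lung RNA had not. The labels of 3 perfusate arrays leave amplification unstated. No label says whether the arrays of a group stand for different mice. The p-values then measure the spread among these arrays alone, and that spread may be technical.

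Before a cell divides it copies its DNA once. Origin recognition complex (Orc) proteins and Cdc6 load the Mcm2 to Mcm7 helicase onto origins in G1, the step called licensing, and Cdc45 and the polymerases then open and copy the fork in S phase, with deoxynucleotides from Rrm1, Rrm2 and Tyms. Cyclin A and B with Cdk1, the Aurora and Polo kinases, the checkpoint genes of the Bub family, the centromere proteins and the mitotic kinesins carry the cell through G2 and mitosis. In healthy adult lung few cells divide, and these genes are used as marks of proliferation. In tissue RNA, fewer cells of a type and less RNA per cell cannot be told apart.

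Cell cycle genes of the 2 phases are known to carry different promoter elements: E2F sites mark genes of G1 and S phase, while the cell cycle homology region (CHR), often beside CCAAT boxes, marks genes of G2 and mitosis. RefSeq promoters of build GRCm38.p6, from 250 bases before to 50 after the start of transcription, were found for 70 of the 79 genes, 81 promoters in all. They were searched on both strands for TTTGAA (CHR), CCAAT, and TTTCCCGC, TTTCGCGC, TTTGCCGC or TTTGGCGC (E2F). A CHR stood in 29.6% of the members' promoters against 17.9% of all 32851 promoters of that length, a CCAAT box in 66.7% against 37.4%, an E2F match in 23.5% against 2.26%, and CHR and CCAAT together in 24.7% against 6.95%. Within the members, CHR matches were in 47.2% of 36 promoters of chromosome and mitosis genes and in 6.25% of 16 licensing promoters, and E2F matches in 8.33% and 43.8% of the same. Fork genes held an E2F match in 35% and a CHR in 20% of their 20 promoters. A match describes the letters and is not a measured site.

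The 200 bases before the start are shown for 4 genes whose RNA differed between groups, 1 from each of the 4 largest roles, to set the E2F type beside the CHR type. Capitals mark matches to the searched letters on either strand. Mcm6, a licensing gene, lies at chr1:128359706-128359905, Pola1, the catalytic subunit of polymerase alpha, at chrX:93632156-93632355, Top2a, the topoisomerase that untangles chromosomes for mitosis, at chr11:99024190-99024389, and Ccnb2, cyclin B2, at chr9:70421555-70421754, all on the minus strand of GRCm38.p6.
Mcm6: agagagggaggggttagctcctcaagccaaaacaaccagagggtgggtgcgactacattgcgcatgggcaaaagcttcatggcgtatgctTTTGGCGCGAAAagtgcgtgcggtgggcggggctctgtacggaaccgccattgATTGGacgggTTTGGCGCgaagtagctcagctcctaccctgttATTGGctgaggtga
Pola1: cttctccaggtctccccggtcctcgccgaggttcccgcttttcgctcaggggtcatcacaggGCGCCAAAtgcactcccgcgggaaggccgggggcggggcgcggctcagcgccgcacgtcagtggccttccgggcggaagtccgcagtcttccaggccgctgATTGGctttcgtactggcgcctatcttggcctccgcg
Top2a: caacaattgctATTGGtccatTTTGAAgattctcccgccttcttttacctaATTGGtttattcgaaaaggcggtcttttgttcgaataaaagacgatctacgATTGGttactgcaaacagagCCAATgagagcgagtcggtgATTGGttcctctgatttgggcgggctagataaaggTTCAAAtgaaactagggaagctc
Ccnb2: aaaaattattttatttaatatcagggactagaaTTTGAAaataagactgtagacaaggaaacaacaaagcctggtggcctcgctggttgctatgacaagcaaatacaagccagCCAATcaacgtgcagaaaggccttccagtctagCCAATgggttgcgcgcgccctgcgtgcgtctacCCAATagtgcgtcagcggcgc
Mcm6 held 3 E2F matches, 2 of them overlapping on opposite strands, and 2 CCAAT boxes. Pola1 held 1 E2F match and 1 CCAAT box. Top2a held 2 CHR matches and 5 CCAAT boxes, and Ccnb2 held 1 CHR match and 3 CCAAT boxes, with no E2F match in this window for either.

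Each array was centred on its median, since the deposited medians ranged from -0.96 to 0.30, and 15693 to 18655 spots per array had one. Values are therefore centred log2 ratios to the reference, and a value of 0 is the median spot of that array. They show how a gene differed between samples and not how abundant it was, so the absence of a cell type's markers could not be read. The direction of the ratio is not stated and is here read as that of the sample against the reference. This is likely, since Il13 stood at 1.27 to 3.41 on the perfusate arrays of IL-13 groups and -0.45 to 0.48 on those of OVA and PBS. If the direction were opposite, every sign would turn. Among the Stat6-/- arrays, 3 of perfusate (-1.19, -0.71 and -0.70) and 2 of whole lung (-3.09 and -2.97) had the lowest mean log2 ratio of 3 Y-linked genes in their tissue. In perfusate, Stat6+/- replicate 4 (-0.59) and Epi+ replicate 16 (-0.55) lay close above them, without a clear gap. Whole lung OVA replicate 5 read -1.72. Counts for comparisons with Stat6-/- are given with and without those 5 Stat6-/- arrays, and leaving them out also leaves fewer arrays to test. Perfusate arrays fell into 5 reference preparations, each with 1 array of every group, and the perfusate fits carried these as a block.

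The median of the members on each array placed the OVA arrays above the PBS arrays in both tissues, and in perfusate above the IL-13 arrays too. In perfusate it ran from 0.34 to 0.53 on the 5 OVA arrays, from 0.04 to 0.31 on PBS, from -0.15 to 0.07 on IL-13 Stat6+/-, from -0.04 to 0.09 on Stat6-/- and from -0.08 to 0.11 on Epi+. All OVA arrays lay above all other perfusate arrays, and the 3 IL-13 groups overlapped one another and the lower PBS arrays. In whole lung the OVA arrays read 0.55 to 0.98 and the PBS arrays -0.32 to 0.01, without overlap. The whole lung IL-13 arrays, on the other platform, ran from -0.24 to 0.49 in Stat6+/-, from -0.34 to 0.12 in Stat6-/- and from -0.32 to 0.24 in Epi+, and the groups overlapped. These arrays were split over 2 reference pools. On Ref Pool 4 the 3 Stat6+/- arrays (0.33, 0.35 and 0.49) lay above the 3 Stat6-/- arrays (-0.23, -0.03 and 0.12) and the 2 Epi+ arrays (-0.21 and 0.24). On Ref Pool 3 the 2 Stat6+/- arrays (-0.24 and -0.10) lay among or above the 2 Stat6-/- (-0.34 and -0.21) and 3 Epi+ arrays (-0.32, -0.29 and -0.24). The whole lung fits carried the pool as a block.

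**Figure D1:**
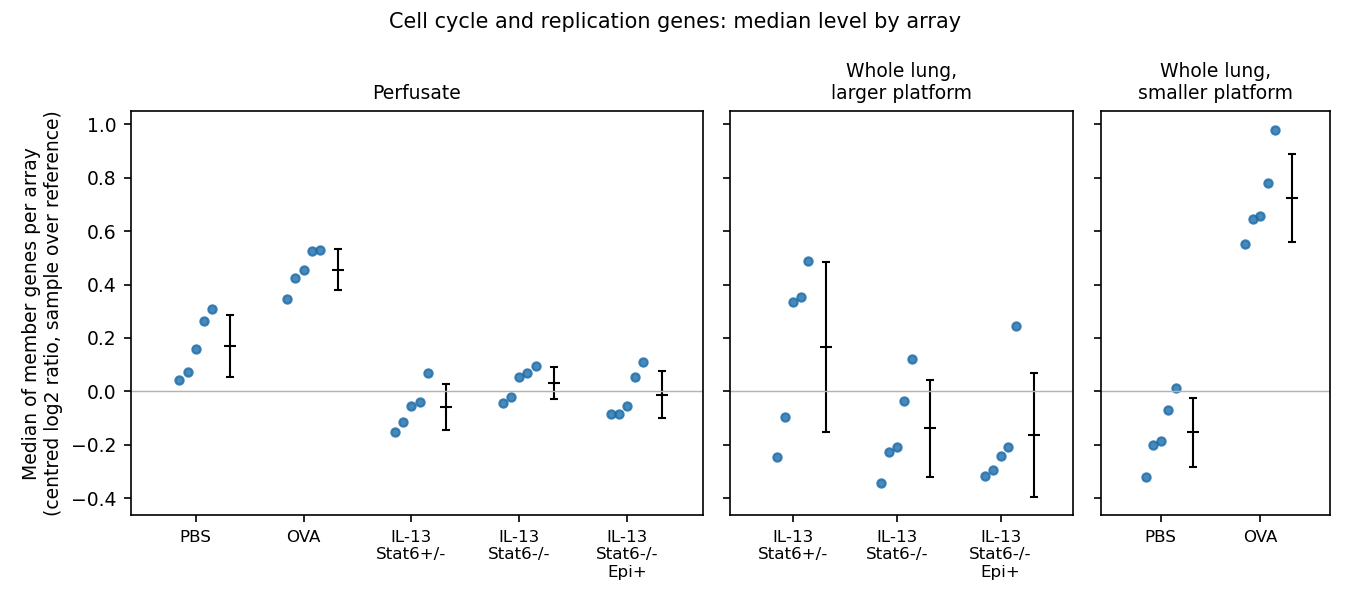
Median centred log2 ratio of the cell cycle and DNA replication members on each array, by group. Each point is an array, and the panels separate perfusate, whole lung on the larger platform and whole lung on the smaller platform. The 5 perfusate OVA arrays (0.34 to 0.53) lie above all other perfusate arrays, and the 5 whole lung OVA arrays (0.55 to 0.98) above all whole lung PBS arrays (-0.32 to 0.01).

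In whole lung, 11 members that act in mitosis or as cyclins and 4 replication members were higher in OVA than in PBS. Of 83 probes tested, 15 were higher in OVA than in PBS and 0 lower at an adjusted p under 0.05 (limma moderation, Benjamini-Hochberg over 17047 probes), where 1.5% of all probes were higher and 0.252% lower. The members' median log2 difference was 1.04, against 0.03 for all probes, and 67 of 83 were above 0, against 51.8% of all probes. The called members numbered 8 of 35 in chromosomes and mitosis (median 1.31), 3 of 9 among the cyclins and Cdk1 (1.51), 3 of 14 in licensing (0.68), 1 of 22 at the fork (0.28) and 0 of 3 in nucleotide supply (1.21). Without adjustment 43 members had a p under 0.05 on the higher side and 2 on the lower, against 9.61% and 6.21% of all probes. For 29 members all OVA arrays lay above all PBS arrays, against 4.47% of all probes, and for 1 member below, against 3.23%. All 15 called members were among those that did not overlap.

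Among the cyclins, Cdk1, the kinase that drives entry into mitosis, had log2 ratios of 1.58, 1.84, 2.00, 2.04 and 3.35 on the OVA arrays and -0.94, -0.84, -0.33, -0.24 and 0.92 on the PBS arrays. The lowest OVA array was above the highest PBS array. Cdk1 rose by 2.45 ± 0.43 (SE) on the log2 scale, 5.45-fold (limma, adjusted p = 0.0204, n = 5 and 5). Ccna2, cyclin A2, which serves S phase and G2, read 0.54, 0.81, 0.84, 1.13 and 1.20 in OVA and -1.58, -0.79, -0.70, -0.60 and -0.21 in PBS, a rise of 1.68 ± 0.28 (3.20-fold, adjusted p = 0.0173). Ccnb2, the CHR gene printed above, read 0.66, 0.92, 0.97, 1.24 and 1.37 in OVA and -0.98, -0.79, -0.74, -0.28 and 0.00 in PBS, a rise of 1.59 ± 0.26 (3.01-fold, adjusted p = 0.0151). Both cyclins were thus apart on every array. Ccna1 differed by 1.70 with overlapping groups and was not called (0.101).

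Among genes of chromosomes and mitosis, Aurka, the kinase that builds spindle poles, read 1.05, 1.48, 1.57, 1.84 and 2.51 in OVA against -0.99, -0.65, -0.44, -0.42 and 0.42 in PBS, a rise of 2.11 ± 0.34 (4.31-fold, limma adjusted p = 0.0142). Plk1, the Polo kinase of mitotic entry and exit, read 0.98, 1.02, 1.08, 1.10 and 1.38 against -1.10, -0.99, -0.91, -0.26 and 0.22, a rise of 1.72 ± 0.29 (adjusted p = 0.0173). The 5 OVA values of Plk1 lay closer together than those of PBS. Mki67, which encodes the proliferation antigen Ki-67, read 0.05, 0.74, 1.51, 1.71 and 1.88 against -1.79, -1.05, -1.03, -0.87 and -0.43, a rise of 2.21 ± 0.39 (4.63-fold, adjusted p = 0.0216). Top2a read 0.27, 0.62, 1.27, 1.29 and 1.32 against -2.28, -1.01, -1.01, -0.81 and -0.28, a rise of 2.03 ± 0.38 (4.09-fold, adjusted p = 0.0272). For both genes the arrays varied by more than a log2 unit within each group and still did not overlap. Of the kinesins, Kif20a, which acts in cytokinesis, had the largest called difference, with 0.88, 1.11, 1.18, 1.33 and 1.73 in OVA and -2.54, -1.20, -1.17 and -0.20 on the 4 PBS arrays with a value (2.52 ± 0.43, 5.75-fold, adjusted p = 0.0216). Kif4, a chromosome-bound kinesin, rose by 1.38 ± 0.28 (adjusted p = 0.0372), and Kif23, of the central spindle, by 1.14 ± 0.25 (adjusted p = 0.0468). The centromere gene Cenpw read 1.29, 1.53, 1.77 and 2.21 on 4 OVA arrays and -1.44, -1.19, -0.20, -0.09 and 0.29 in PBS, a rise of 2.23 ± 0.40 (adjusted p = 0.0282).

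Several mitotic members had differences of that size without passing the test. Aurkb, the kinase of the chromosome passenger complex, differed by 1.99 ± 0.48 (limma adjusted p = 0.0659), and the spindle checkpoint kinase Bub1b by 1.97 ± 0.45 (adjusted p = 0.0552). Cdc20, the activator that ends the checkpoint, differed by 1.54 ± 0.42 and Bub1 by 1.39 ± 0.39. Other mitotic members hardly differed or lay lower in OVA without a call. Among them were Kif11 (-0.05 ± 0.24), Bub3 (-0.36 ± 0.24), Cenpv (-0.73 ± 0.42), Cenpx (-0.08), Cenps (0.10) and Cenpt (0.15). Birc5, or survivin, was not tested for want of values.

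Among licensing and fork genes, Cdc45, the helicase cofactor that starts the fork, had the smallest adjusted p of all members. It read 0.98, 1.43, 1.44, 1.44 and 2.36 in OVA and -0.75, -0.46, -0.33, -0.30 and -0.19 in PBS, a rise of 1.94 ± 0.28 (3.83-fold, limma adjusted p = 0.00998). Orc1, the largest subunit of the origin complex, read 1.06, 1.19, 1.28 and 1.88 on 4 OVA arrays and -0.85, -0.64, -0.07 and -0.05 on 4 PBS arrays, a rise of 1.76 ± 0.31 (adjusted p = 0.0317). Of the helicase subunits, Mcm3 read 1.01, 1.01, 1.30, 1.60 and 1.80 against -0.20, -0.07, 0.03, 0.07 and 0.10, a rise of 1.36 ± 0.23 (2.56-fold, adjusted p = 0.0173). Mcm2 read 0.21, 0.40, 0.81, 1.03 and 1.29 against -1.33, -0.94, -0.86, -0.52 and -0.04, a rise of 1.49 ± 0.31 (adjusted p = 0.0405). The other subunits had positive differences that did not pass: 1.48 for Mcm6 (adjusted p = 0.054), 1.47 for Mcm5, 0.61 for Mcm7 and 0.51 for Mcm4. Mcm6 read -0.37, 0.11, 0.49, 0.63 and 1.06 in OVA and -1.89, -1.30, -0.90, -0.73 and -0.66 in PBS and did not overlap either. Pcna, the sliding clamp of the polymerases, read -0.74, -0.20, 0.55, 0.69 and 0.72 in OVA and -0.48, -0.16, -0.02, 0.04 and 0.17 in PBS, overlapping, with a difference of 0.29 ± 0.32 (adjusted p = 0.693). Pola2 probes gave -1.04 ± 0.25 and 1.81 ± 0.51 and Orc4 probes -2.40 ± 1.02 and 0.42 ± 0.25, so no direction is given for these genes. The nucleotide genes Rrm2 (1.25), Tyms (1.21 ± 0.37, adjusted p = 0.137) and Rrm1 (1.04) were not called.

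**Figure D2:**
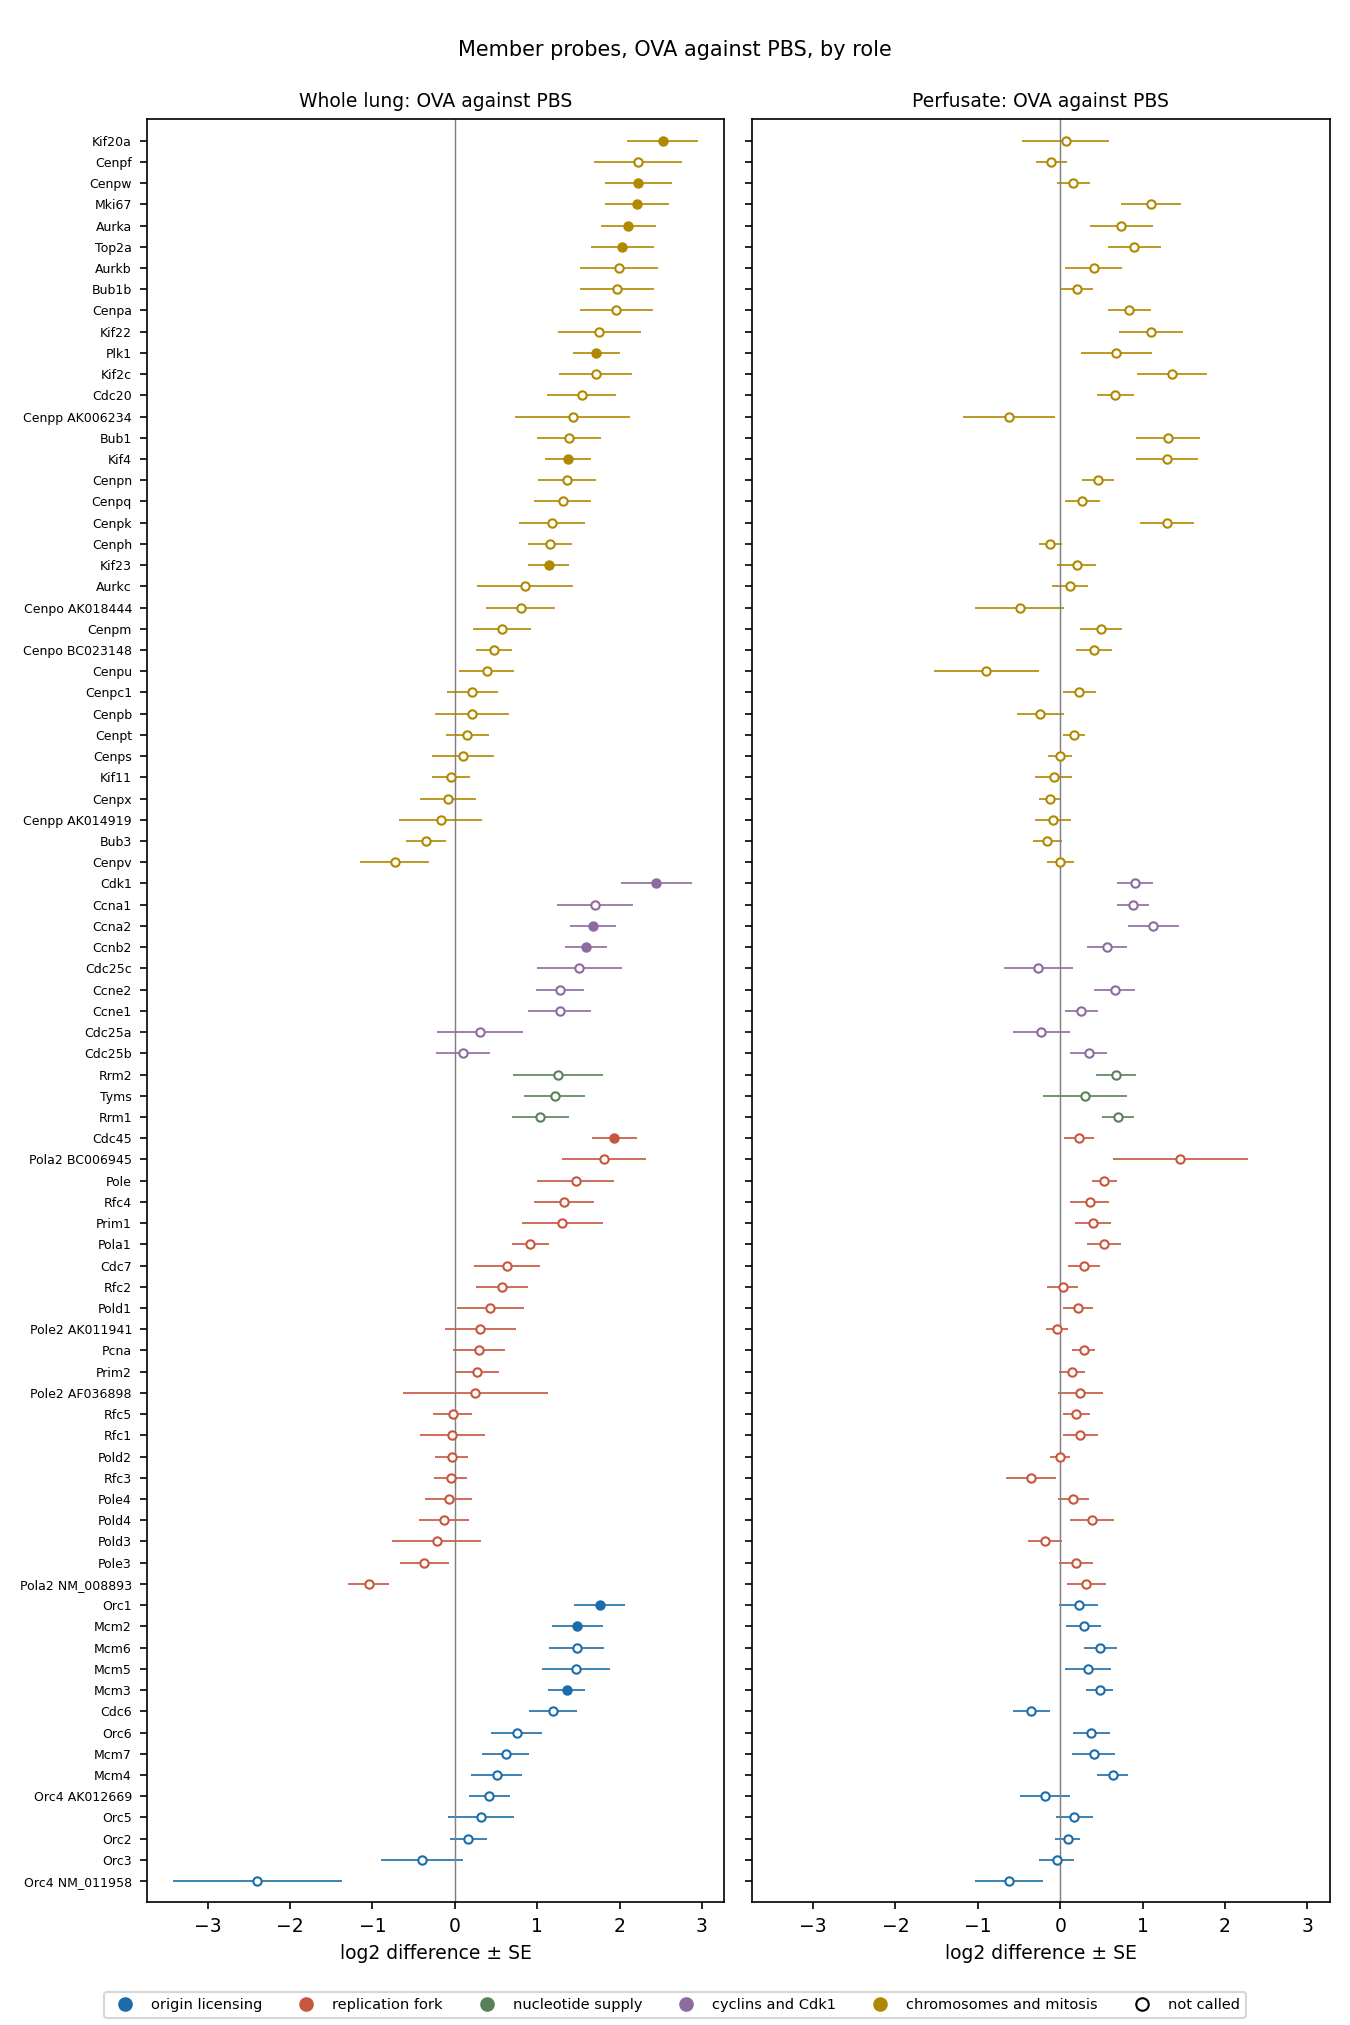
Log2 difference of OVA from PBS for each cell cycle and DNA replication member, with its standard error, grouped by role. Whole lung is on the left and perfusate on the right, and filled points passed an adjusted p under 0.05. In whole lung 15 of 83 probes are filled, all to the right of 0, and in perfusate 0 of 84.

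Many but not all other cell cycle genes outside the 79 moved likewise in whole lung. Of 98 probes of a wider list, 21 were higher in OVA, 0 lower and 85 above 0, against 1.5%, 0.252% and 51.8% of all probes. Its mitosis genes had 13 of 36 called, among them the kinetochore genes Nuf2 (2.40 ± 0.31, limma adjusted p = 0.00922) and Spc25 (2.02 ± 0.28, 0.00998) and the sister chromatid gene Cdca5 (2.55 ± 0.41, 0.0142). Its replication genes had 4 of 31 called, with Gins2, of the fork helicase, at 1.84 ± 0.27 (0.01) and the flap nuclease Fen1 at 1.55 ± 0.28 (0.0245). Others of the list hardly differed, such as the regulator Foxm1 (0.02), the mitosis genes Stmn1 (0.01) and Ube2c (0.13) and the replication gene Gmnn (0.04). The checkpoint gene Exo1 went the other way at -1.13 ± 0.27 (0.0632). Of G1 cyclins and kinases 0 of 6 and of cycle inhibitors 0 of 8 were called. Ccnd1, cyclin D1, differed by 0.00 ± 0.31, and the inhibitor Cdkn1a by -0.70 ± 0.35 (0.358). Markers of other cells moved in the same arrays. Of macrophage markers 9 of 12 were higher in OVA (median per array 1.64 to 2.96 in OVA and 0.215 to 0.910 in PBS), of mucous cell markers 5 of 6 (1.75 to 2.63 and -0.169 to 0.473), of B and plasma cell markers 2 of 8, and of eosinophil, basophil and mast cell markers 1 of 9. T cell markers had 0 of 11 called (-0.122 to 0.760 in OVA and -1.36 to -0.509 in PBS), 9 of them higher at an unadjusted p under 0.05. Endothelial markers had 0 of 5 called as well (-1.40 to -0.516 in OVA and -0.311 to 0.086 in PBS), and all 5 were lower at an unadjusted p under 0.05. The part of these cells in the members' difference was not tested.

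The whole lung count depended on which arrays were included. It was 3 without PBS replicate 2, 6 without OVA replicate 1, 6 without PBS replicate 5 and 9 without PBS replicate 4, and 2 with the values as deposited. It stayed at 15 without OVA replicate 5. Over all probes, the calls with 1 array left out ranged from 105 to 308, against 256 higher and 43 lower with all arrays. Cdc45 and Aurka passed the limma test whichever array was left out.

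In perfusate, OVA against PBS gave 0 called members of 84, where 0.172% of all probes were higher and 0.0652% lower by the same limma test. Without adjustment, 22 members had a p under 0.05 in the direction of OVA and 0 in that of PBS, against 4.2% and 4.96% of all probes. The median difference was 0.25 against -0.01 for all probes, and 62 of 84 were above 0, against 48.9%. The role medians were 0.68 in nucleotide supply, 0.57 for the cyclins and Cdk1, 0.25 in licensing, 0.24 at the fork and 0.20 in mitosis. Within each of the 5 reference preparations the members' median was higher in OVA, by 0.115 to 0.413.

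The perfusate arrays of single genes give the size. Cdk1 read 1.20, 1.24, 1.40, 1.59 and 1.62 in OVA and 0.29, 0.34, 0.45, 0.58 and 0.86 in PBS, without overlap, a difference of 0.91 ± 0.22 (limma adjusted p = 0.0948). Top2a read 1.50, 1.52, 1.66, 2.02 and 2.28 in OVA and 0.44, 0.75, 0.86, 0.95 and 1.47 in PBS, also without overlap (0.90 ± 0.32, 0.336). Cenpk, of the centromere (1.30 ± 0.32, 0.134), Pole and Mcm4 were the other members whose groups did not overlap, 5 in all against 0.978% of all probes. Ccna2 read 1.35, 1.40, 1.51, 1.64 and 2.11 in OVA and 0.15, 0.25, 0.26, 0.29 and 1.41 in PBS, where 1 PBS array reached the OVA range (1.13 ± 0.31, 0.19). Mki67 differed by 1.10 ± 0.36 (0.281), Rrm1, the large subunit of ribonucleotide reductase, by 0.71 ± 0.19 (0.189), and Mcm6 by 0.49 (0.435). The smallest adjusted p was that of Ccna1, the A cyclin of the germ line (0.88 ± 0.20, 0.0838). Birc5 went the other way at -0.85 ± 0.65 (0.779), from spots whose values correlated at 0.47 across arrays. Of the wider list, Nek2, a centrosome kinase, was higher by 0.78 ± 0.15 (0.0347), 1 of 100 probes, against 0.172% of all probes. Mucous cell markers were higher in 2 of 6 (Clca1 by 3.39 ± 0.31), and 0 of 11 macrophage and 0 of 11 T cell markers were called. Whole lung and perfusate OVA arrays were on different platforms, and the difference between the tissues was not tested.

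**Figure D3:**
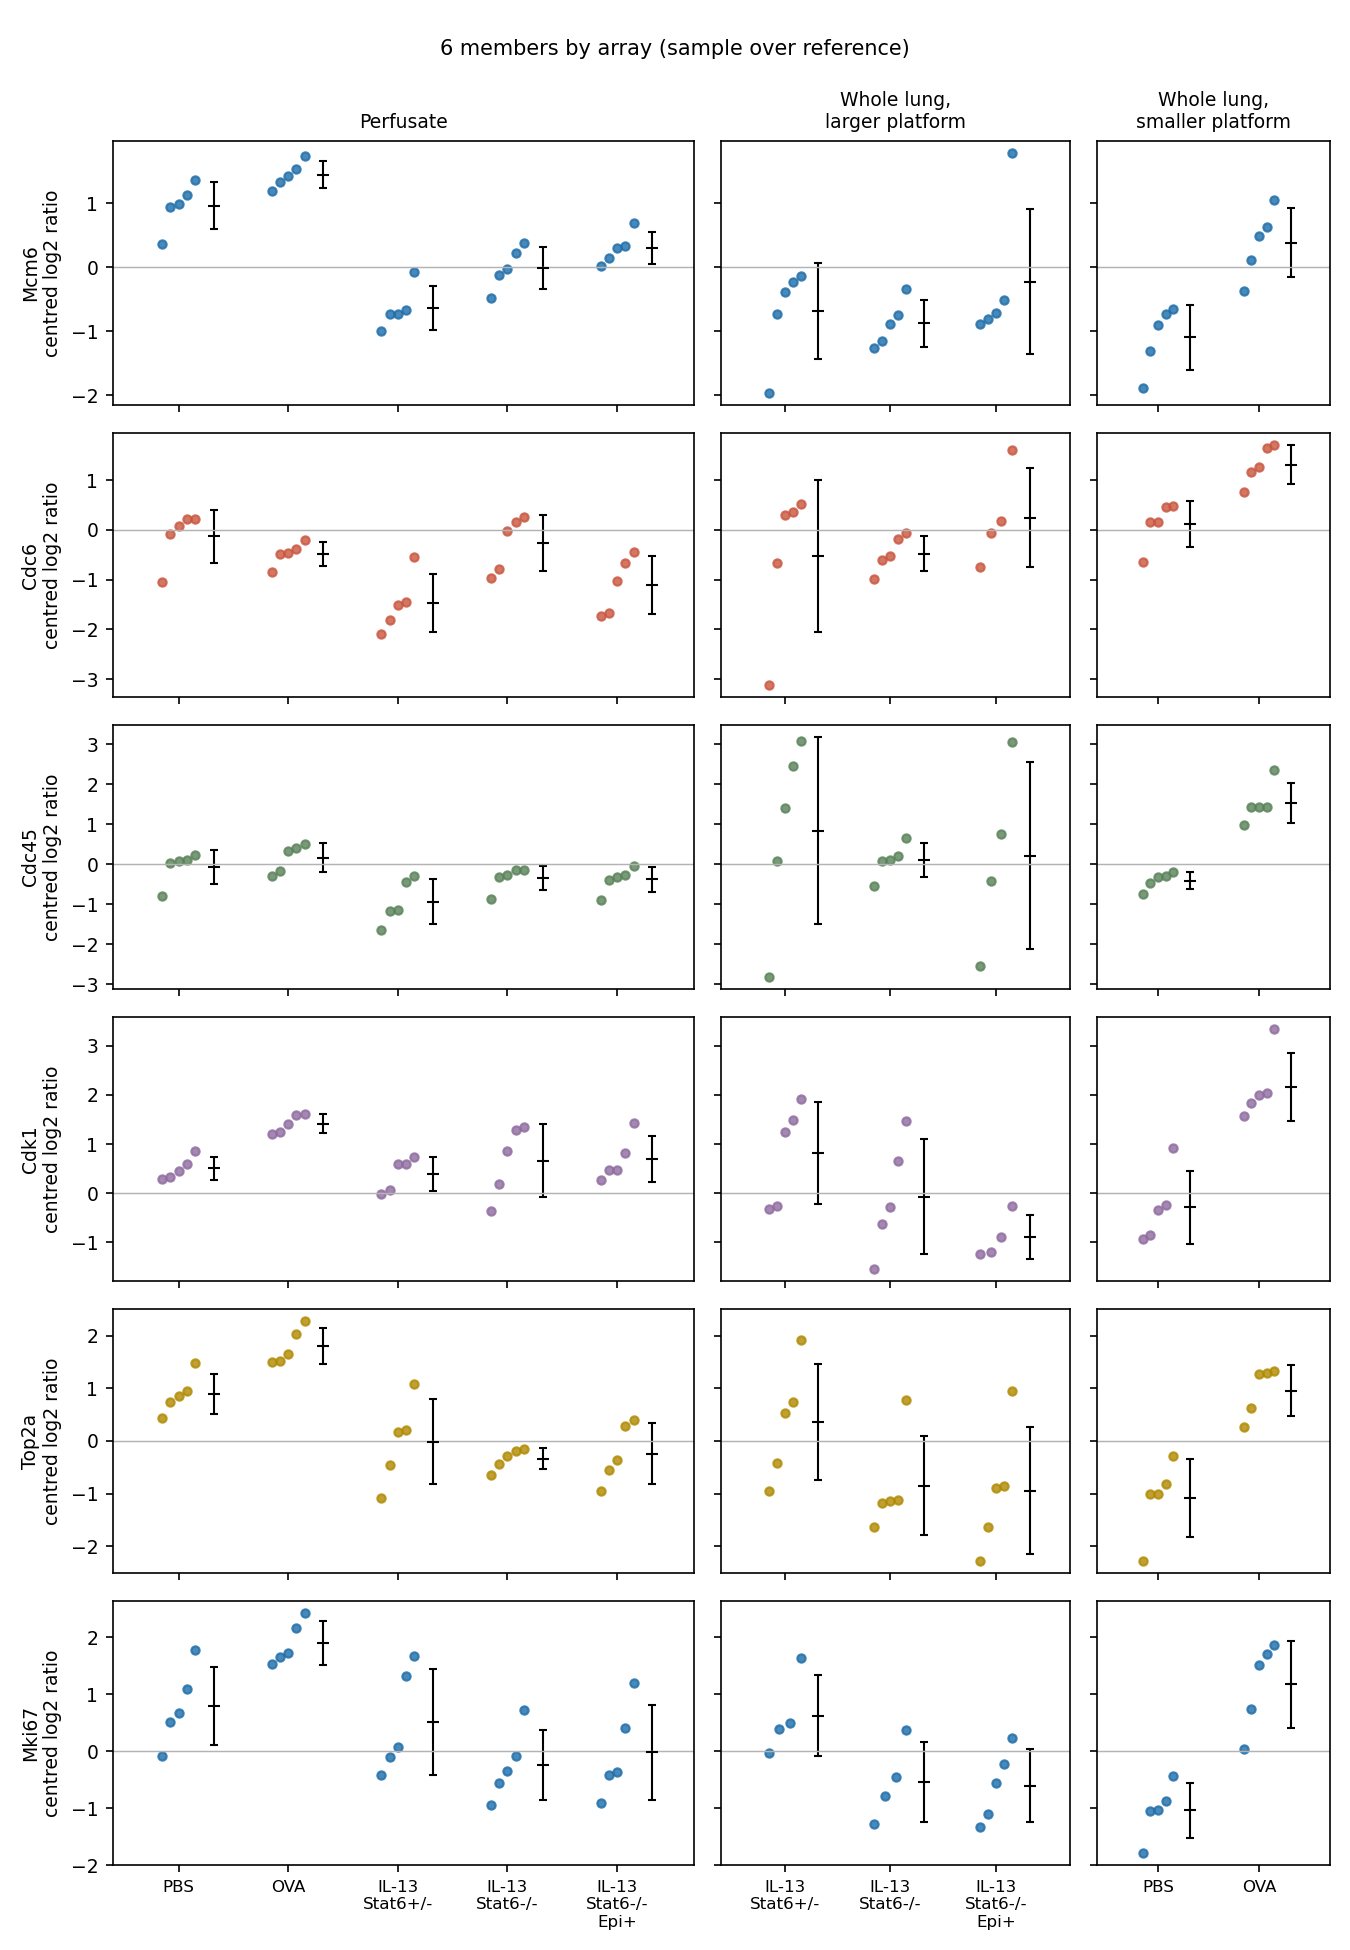
Centred log2 ratio of Mcm6, Cdc6, Cdc45, Cdk1, Top2a and Mki67 on each array, by group, for perfusate, whole lung on the larger platform and whole lung on the smaller platform. Points are arrays and bars give the mean and SD of 5 arrays or of those with a value. In perfusate Mcm6 runs from -1.0 to -0.07 in IL-13 Stat6+/- and from 0.37 to 1.37 in PBS, while Cdk1 overlaps between those groups.

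Perfusate of IL-13 Stat6+/- mice had less RNA of 5 helicase subunits, of Cdc6, Cdc45, Pola1 and Pold2, and of the centromere gene Cenph than PBS perfusate. Of 84 members 10 were lower and 0 higher by the limma test, where 4.28% of all probes were lower and 2.84% higher. The median difference was -0.19 against -0.03 for all probes, and 28 of 84 were above 0, against 47.8%. Licensing held 6 of the 10 (of 14 probes, median -0.57), the fork 3 of 22 (-0.17) and mitosis 1 of 36 (-0.15). The cyclins and Cdk1 had 0 of 9 (-0.13) and nucleotide supply 0 of 3. The called genes were Mcm2, Mcm4, Mcm5, Mcm6, Mcm7, Cdc6, Cdc45, Pola1, Pold2 and Cenph.

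Mcm6 read 0.37, 0.94, 0.99, 1.12 and 1.37 on the PBS arrays and -1.0, -0.73, -0.73, -0.68 and -0.07 on the Stat6+/- arrays. The groups did not overlap. Mcm6 fell by 1.60 ± 0.20 on the log2 scale, 3.03-fold (limma adjusted p = 7.03e-05, n = 5 and 5), and was lower in each of the 5 reference preparations, by 1.05 to 2.04. Mcm4 read 0.05, 0.29, 0.49, 0.91 and 0.91 in PBS and -0.66, -0.46, -0.38, -0.05 and 0.07 in Stat6+/-, and fell by 0.83 ± 0.19 (adjusted p = 0.0112). Mcm2 read -0.33, 0.57, 1.08, 1.13 and 1.25 in PBS and -1.21, -0.83, -0.30, -0.13 and 0.67 in Stat6+/-, and fell by 1.10 ± 0.21 (adjusted p = 0.00336). In these 2 genes 1 or more arrays overlapped between the groups. Mcm5 fell by 1.09 ± 0.28 (0.0228) and Mcm7 by 0.93 ± 0.26 (0.0374), and in both the highest Stat6+/- array, at 1.18 and 0.61, lay inside the PBS range. Mcm3 is the remaining subunit. Its groups did not overlap (-0.67 to -0.02 in Stat6+/- and 0.00 to 0.47 in PBS), but the difference of -0.43 did not pass (0.125). Mcm6 and Mcm3 were the 2 members of 84 without overlap, against 2.95% of all probes, so the members' share was close to that of all probes.

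Cdc6, the loader that brings the helicase to origins, read -1.05, -0.08, 0.07, 0.21 and 0.22 in PBS and -2.09, -1.80, -1.50, -1.45 and -0.54 in Stat6+/-. It fell by 1.35 ± 0.23, 2.55-fold (limma adjusted p = 0.00117), with 1 array of each group inside the other's range. At the fork, Cdc45 fell by 0.87 ± 0.18 (0.00641), from -0.80, 0.04, 0.07, 0.11 and 0.24 in PBS to -1.65, -1.17, -1.15, -0.43 and -0.29. Pola1, which makes the first stretch of new DNA, read -0.40, -0.09, 0.00, 0.20 and 0.49 in PBS and -1.41, -1.14, -0.63, -0.52 and -0.25 in Stat6+/- (fell by 0.83 ± 0.20, 0.0172). Pold2, an accessory subunit of polymerase delta, fell by 0.45 ± 0.12 (0.0293). The mitotic exception was the centromere gene Cenph, which fell by 0.54 ± 0.14 (0.0243), from -0.18 to 0.42 in PBS to -0.74 to 0.12 in Stat6+/-.

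Of the cyclins and the other mitotic members, none was called. Cdk1 read -0.02, 0.08, 0.59, 0.60 and 0.74 in Stat6+/- and overlapped PBS (-0.10 ± 0.22, limma adjusted p = 0.811), as did Mki67 (-0.29 ± 0.36, 0.679) and Ccnb2 (0.07, 0.885). Top2a read -1.08, -0.46, 0.17, 0.21 and 1.07 in Stat6+/-, and its difference of -0.91 did not pass (0.0924). Pcna differed by 0.01. A difference between the roles was not tested. Of the wider cell cycle list, 7 of 100 probes were lower and 1 higher, against 4.28% and 2.84% of all probes. The lower ones held the S phase checkpoint kinase Chek1 (-1.22 ± 0.15, 6.33e-05), the licensing inhibitor geminin, Gmnn (-1.47 ± 0.27, 0.00243), Mcm8, Fen1, Gins2 (-1.08, 0.0281), the kinetochore gene Spc24 and the pocket protein gene Rbl2. The higher one was Lmnb1, of the nuclear lamina (0.69). Cdkn1a differed by 0.74 ± 0.24 (0.0645).

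**Figure D4:**
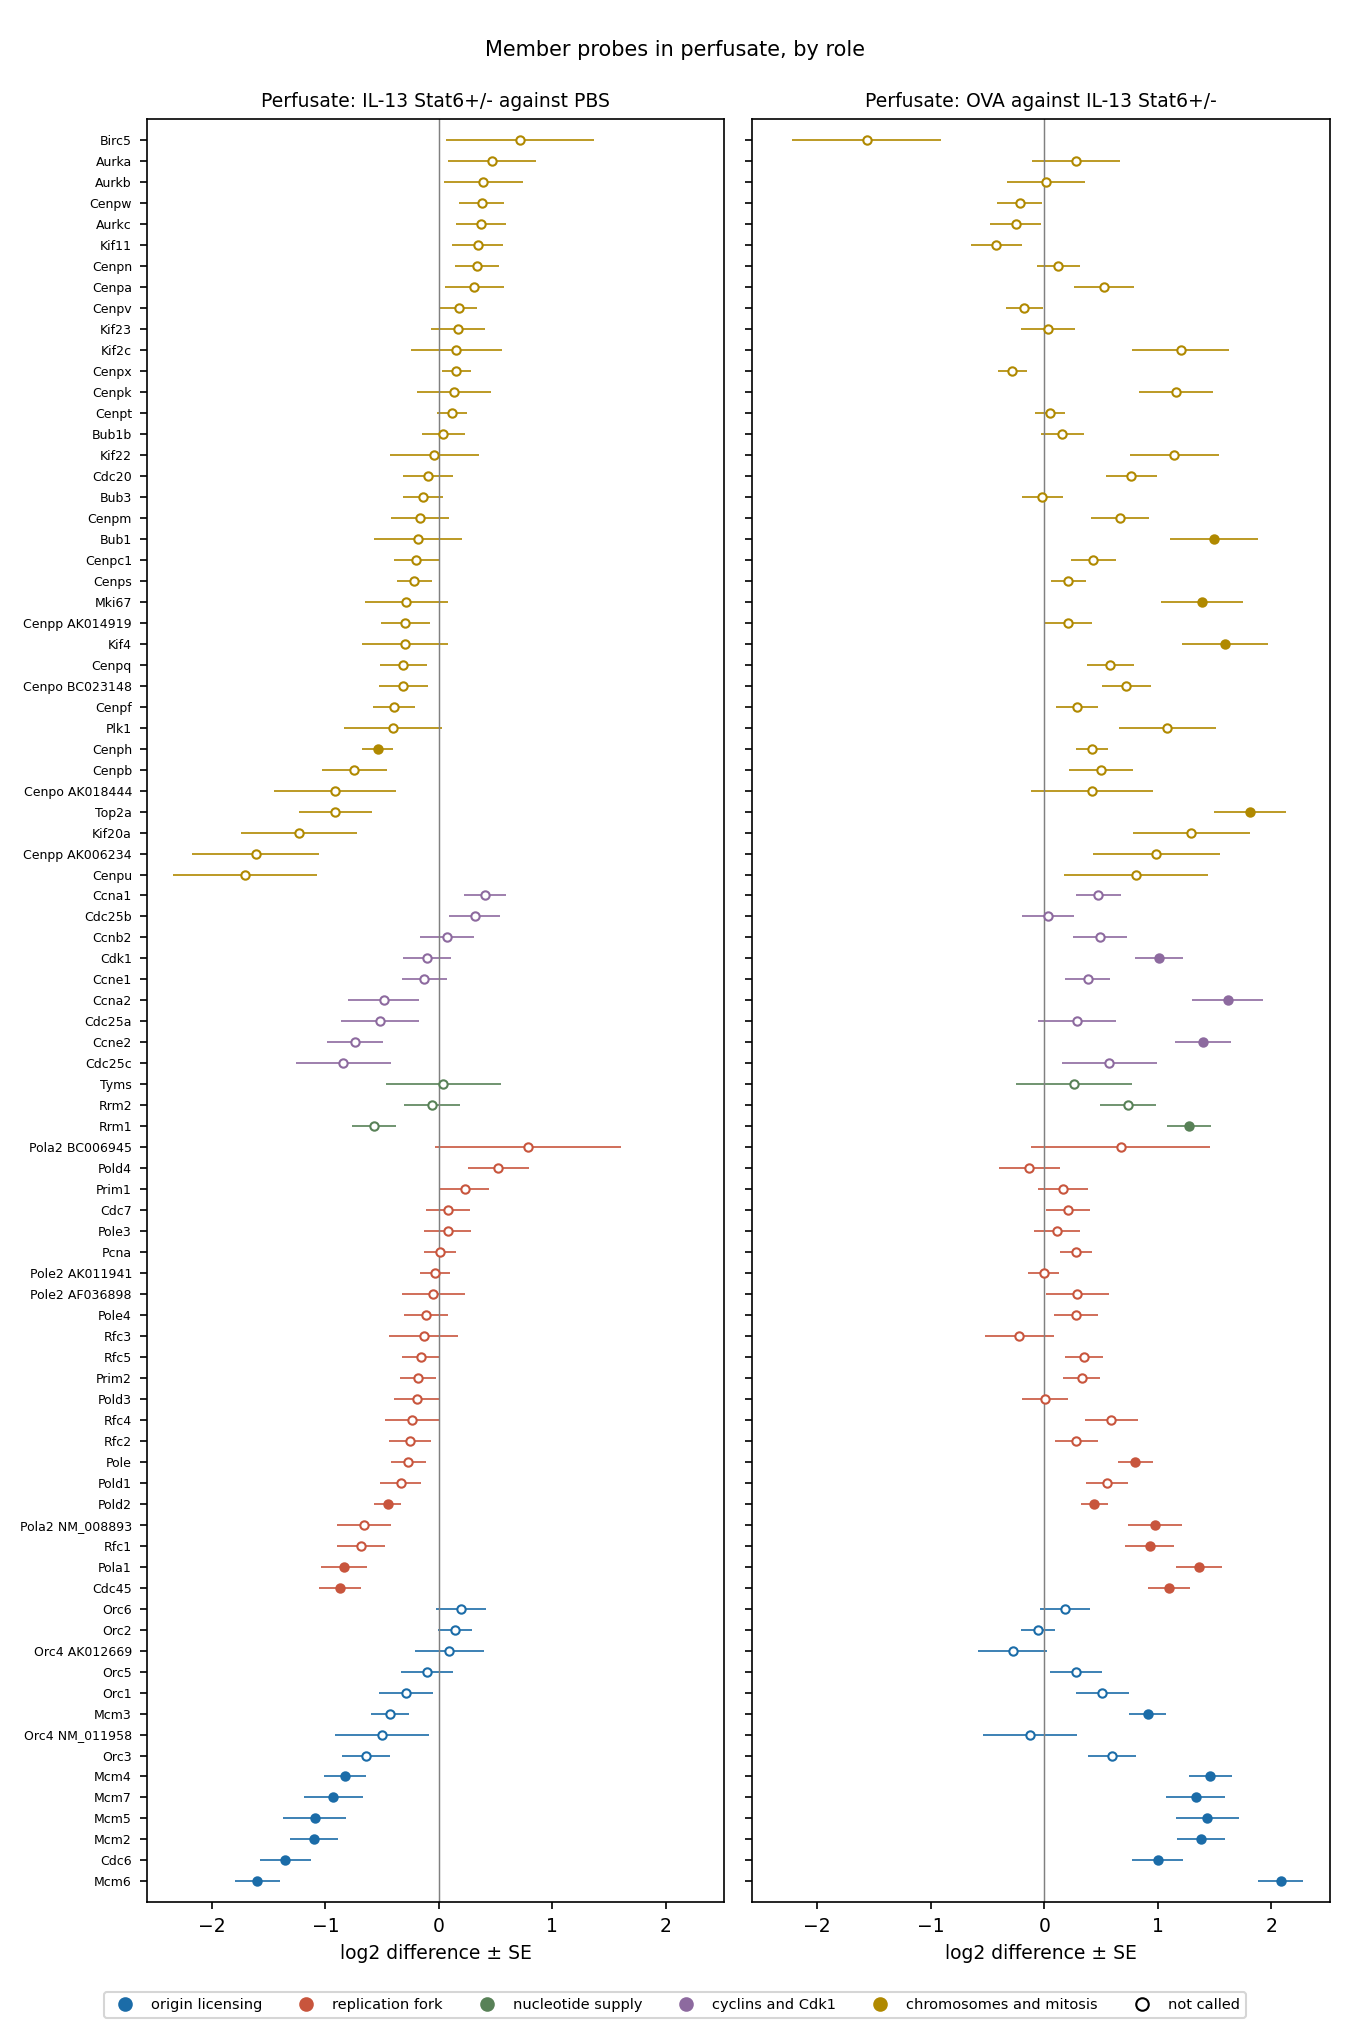
Log2 differences, with standard errors, of IL-13 Stat6+/- from PBS perfusate (left) and of OVA from IL-13 Stat6+/- perfusate (right) for each cell cycle and DNA replication member, grouped by role. Filled points passed an adjusted p under 0.05: 10 of 84 on the left, all below 0, and 21 of 84 on the right, all above 0. The panels share the Stat6+/- arrays.

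Other cell markers differed between the same arrays. Mucous cell markers were higher in Stat6+/- in 4 of 6 (per array median 0.408 to 1.52 in Stat6+/- and -0.458 to -0.007 in PBS) and T cell markers in 3 of 11 (-0.150 to 1.26 and -0.462 to -0.020). Macrophage markers were higher in 1 of 11. Fibroblast markers were lower in 2 of 6 (Col1a1 by -1.09 and Col1a2 by -1.37, limma), and alveolar markers in 1 of 5, Sftpa1, by -3.01. Their part in the members' difference was not tested. The count of 10 was 5 without Stat6+/- replicate 8 or without PBS replicate 26, 6 without PBS replicate 23, 2 with the values as deposited, 3 without the reference block and 0 in a fit of these 2 groups alone. Mcm6 and Cdc6 stood first by p in the fit reported here.

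Set against OVA perfusate, the Stat6+/- arrays were lower across more roles. This comparison uses the same 5 Stat6+/- arrays as the one against PBS and is no separate evidence of their level. Of 84 members 21 were higher in OVA and 0 lower by the limma test, where 1.99% of all probes were higher and 1.59% lower. The median difference was 0.46 against 0.01, and 71 of 84 were above 0, against 51.3% of all probes. Called were 7 of 14 in licensing (median 0.75), 6 of 22 at the fork (0.31), 4 of 36 in mitosis (0.43), 3 of 9 among cyclins and Cdk1 (0.49) and 1 of 3 in nucleotide supply (0.74). For 15 members all OVA arrays lay above all Stat6+/- arrays, against 2.47% of all probes, and 12 of these were called.

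Mcm6 read 1.20, 1.33, 1.42, 1.53 and 1.74 in OVA, all above the Stat6+/- arrays, and was higher by 2.09 ± 0.20, 4.25-fold (limma adjusted p = 2.25e-05). Mcm4 read 0.95, 0.99, 1.13, 1.30 and 1.48 and was higher by 1.46 ± 0.19 (0.000209). Mcm2 (1.38 ± 0.21, 0.000992), Mcm5 (1.44 ± 0.28, 0.0068), Mcm7 (1.33 ± 0.26, 0.00721) and Mcm3 (0.91 ± 0.17, 0.00405) were higher as well, so all 6 helicase subunits passed. Cdc6, by contrast, read -0.85, -0.49, -0.46, -0.38 and -0.20 in OVA, inside the PBS range, and was higher than in Stat6+/- by 1.00 ± 0.23 (0.0191). At the fork, Pola1 was higher by 1.37 ± 0.20 (0.000791), Cdc45 by 1.10 ± 0.18 (0.00216), the leading strand polymerase Pole by 0.80 ± 0.15 (0.00617), the clamp loader subunit Rfc1 by 0.93 ± 0.21 (0.0202), 1 of 2 probes of Pola2, the partner subunit of Pola1, by 0.98 ± 0.24 (0.0274) and Pold2 by 0.44 ± 0.12 (0.0485). Rrm1 read 0.51, 0.71, 0.81, 0.82 and 1.05 in OVA and -0.70, -0.66, -0.66, -0.52 and 0.07 in Stat6+/-, without overlap (1.28 ± 0.19, 0.00104).

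Of the cyclins and mitotic genes, Top2a was higher in OVA by 1.81 ± 0.32, 3.51-fold (limma adjusted p = 0.00345), Ccna2 by 1.62 ± 0.31 (0.00651), Ccne2, an E cyclin of S phase entry, by 1.40 ± 0.25 (0.0036), and Cdk1 by 1.01 ± 0.22 (0.0134). Kif4 (1.59 ± 0.38, 0.0245), Bub1 (1.50 ± 0.39, 0.0384) and Mki67 (1.39 ± 0.36, 0.04) passed too. Mki67 read 1.54, 1.65, 1.73, 2.17 and 2.43 in OVA and -0.41, -0.10, 0.07, 1.33 and 1.67 in Stat6+/-, and 1 Stat6+/- array reached the OVA range. Ccnb2 (0.49), Pcna (0.28), Cdc20 (0.77), Rrm2 (0.74) and Aurkb (0.02) were not called, and Birc5 differed by -1.56 ± 0.65 (0.213). Of the wider list 21 of 100 probes were higher and 0 lower, against 1.99% and 1.59% of all probes. Among them were Gins1 (1.43, 0.000244), Mcm8 (1.73, 0.000469), Chek1 (1.03, 0.000648) and the S phase activator E2f1 (1.00 ± 0.20, 0.0076). Ccnd2, a D cyclin, differed by -0.76 ± 0.23 (0.0846). Eosinophil and mast cell markers were higher in OVA in 2 of 9 (Cpa3 by 1.89, Mcpt2 by 1.82) and alveolar markers in 1 of 5 (Sftpa1 by 2.57), and their part was not tested. The count was 8 with the values as deposited, 10 without the reference block and 1 in a fit of the 2 groups alone. The allergen and the cytokine differ together between these groups, and the genotype, which is not labelled for OVA, may differ too. Their parts cannot be told apart.

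The other IL-13 groups had 1 and 2 calls against the same PBS arrays. In Stat6-/- perfusate 1 of 84 members was lower, where 0.296% of all probes were lower and 0.302% higher. This was Mcm6, which read -0.48, -0.12, -0.03, 0.21 and 0.38 and fell by 0.97 ± 0.20 (limma adjusted p = 0.0309), with 1 array reaching the lowest PBS array. Without the 3 arrays low in Y-linked signal it differed by -1.06 ± 0.26 (0.113) and no member was called. Top2a read -0.64, -0.44, -0.28, -0.19 and -0.16 in Stat6-/-, all below the lowest PBS array, but its difference of -1.24 ± 0.32 did not pass (0.0857). It was 1 of 2 members without overlap on that side, against 1.17% of all probes. The other was the phosphatase Cdc25c (-1.65 ± 0.42, 0.0807), which did not pass either. The kinesin Kif20a (-2.29 ± 0.55, 0.0776) and Mki67 (-1.04, 0.152) overlapped PBS and were not called. No member was called without any one of Stat6-/- replicates 10, 13 and 14 or PBS replicates 22, 23, 24 and 26. The count was 2 without PBS replicate 25 and 3 without Stat6-/- replicate 12. In Epi+ perfusate 2 of 84 were lower, where 1.56% of all probes were lower and 1.27% higher, so the members' share was close to that of all probes. Cdc6 read -1.74, -1.67, -1.03, -0.66 and -0.44 and fell by 0.98 ± 0.23 (0.0268). Kif20a read -1.97, -1.15, -0.35, 0.47 and 0.50 against 0.34, 0.73, 2.32 and 2.49 on the 4 PBS arrays with a value, and fell by 2.21 ± 0.51 (0.033). Mcm6 (-0.66, 0.0777), Pola1 (-0.72, 0.0594) and Top2a (-1.13, 0.0615) were not called. The count was 0 without Epi+ replicate 17 or PBS replicate 23, 1 without Epi+ replicates 19 or 20 or PBS replicates 22, 24 or 26, 4 without Epi+ replicate 16 and 6 without PBS replicate 25.

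**Figure D5:**
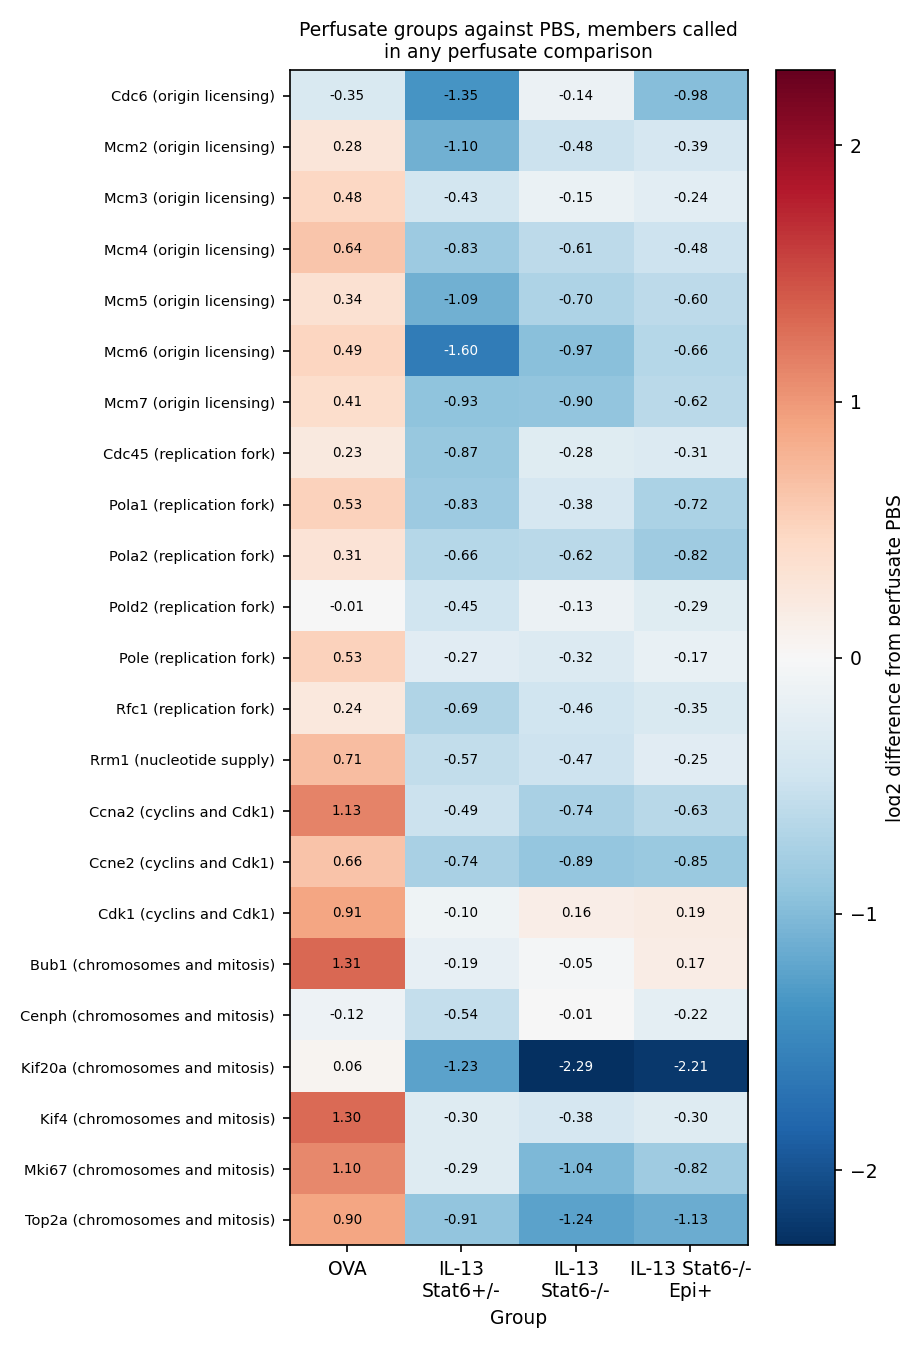
Log2 difference of each perfusate group from PBS for the 23 cell cycle and DNA replication members called in any perfusate comparison, as a colour scale. The 4 columns share the PBS arrays, and the members were selected by these same values. In all 3 IL-13 columns 21 of the 23 lie below PBS, Cdk1 and Bub1 being the exceptions, and in the OVA column 20 lie above PBS, the exceptions being Cdc6 (-0.35), Pold2 (-0.01) and Cenph (-0.12).

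Comparisons among the IL-13 perfusate groups set the Stat6 genotypes side by side where all carried IL-13. The level of Il13 was not matched, at 1.27 to 2.20 in Stat6+/-, 2.06 to 3.41 in Stat6-/- and 1.81 to 2.68 in Epi+. Its part in these differences was not tested. Stat6+/- against Stat6-/- gave 2 lower members of 84 and 0 higher, where 2.02% of all probes were lower and 1.11% higher. The members' share was thus close to that of all probes. Cdc6 read -0.96, -0.79, -0.01, 0.16 and 0.27 in Stat6-/- and fell in Stat6+/- by 1.21 ± 0.23 (limma adjusted p = 0.00407). Cenph read -0.27, 0.10, 0.21, 0.30 and 0.35 in Stat6-/- and fell by 0.53 ± 0.14 (0.04). Without the 3 arrays low in Y-linked signal the differences were -1.29 ± 0.34 (0.0908) and -0.54 ± 0.20 (0.295), and no member was called. Mcm6 (-0.63, 0.106) and Cdc45 (-0.59, 0.0997) did not pass. In these arrays 4 of 6 mucous cell markers were higher in Stat6+/-, Clca1 by 3.77, and their part was not tested. Only 1 of the 2 members was called when any array but Stat6+/- replicate 4 was left out. Epi+ against Stat6-/- gave 0 of 84, where 0.486% of all probes were called, and 0 higher and 2 lower at an unadjusted p under 0.05, against 3.07% and 4.34% of all probes. Its smallest p-values were those of Cdc6 (-0.84 ± 0.23, 0.144), the kinetochore gene Cenpf (-0.60, 0.239) and the clamp loader subunit Rfc3 (-0.59, 0.717), all with overlap. Without the 3 arrays low in Y-linked signal the count was 0 as well. In these arrays 2 of 6 mucous cell markers and 1 of 5 ciliated cell markers were higher in Epi+ and 1 of 5 alveolar markers lower. Stat6+/- against Epi+ also gave 0, where 0.0237% of all probes were called, with 1 higher and 5 lower unadjusted, against 3.78% and 3.24%. Mcm6 was there the 1 member whose groups did not overlap, against 0.409% of all probes on that side (-0.94 ± 0.20, 0.125). Mcm2 (-0.71, 0.337) and Cdc45 (-0.56, 0.423) followed by p. The order of group means of Cdc6 was -0.13 in PBS, -0.27 in Stat6-/-, -0.48 in OVA, -1.11 in Epi+ and -1.48 in Stat6+/-, and that of Mcm6 was 1.45 in OVA, 0.96 in PBS, 0.30 in Epi+, -0.01 in Stat6-/- and -0.64 in Stat6+/-.

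In whole lung the IL-13 groups could be set only against one another, since OVA and PBS lung were on the other platform. Stat6+/- against Stat6-/- gave 1 higher member of 78 and 0 lower, where 3.23% of all probes were higher and 1.61% lower, so the members' share was below that of all probes. This was Tyms, thymidylate synthase, which makes the thymidine nucleotide. It read 0.23, 0.35, 0.50, 0.54 and 0.98 in Stat6+/- and -0.82, -0.56, -0.16, -0.07 and -0.01 in Stat6-/-, without overlap, and rose by 0.84 ± 0.21, 1.80-fold (limma adjusted p = 0.0372). Without the 2 arrays low in Y-linked signal it differed by 0.79 ± 0.24 (0.146). Mcm3 (0.68 ± 0.20, 0.0709), Ccna2 (2.37 ± 0.81, 0.119), Mki67 (1.16 ± 0.42, 0.157) and Top2a (1.21 ± 0.51, 0.216) were not called, nor were Pcna (0.56, 0.118) and Cdk1 (0.89, 0.156). On the lower side, Pold1 (-1.11, 0.118) did not overlap between the groups, and Cenps, of the centromere (-1.19, 0.155), Birc5 (-1.30, 0.19) and Plk1 (-1.87, 0.261) overlapped. None of these passed. In the same arrays macrophage markers were higher in Stat6+/- in 9 of 11 (per array 1.30 to 2.95 against -0.194 to 0.373), mucous cell markers in 5 of 5, neutrophil markers in 2 of 9 and alveolar markers in 2 of 5. Endothelial markers were lower in 2 of 5 (-1.24 to -0.376 against -0.265 to 0.126) and club cell markers in 2 of 5. The part of these cells was not tested. Of the wider list, Cks1b, a small Cdk subunit, rose by 1.35 ± 0.21 (0.00286) and the histone gene H2az1 by 1.00 ± 0.22 (0.0219), 2 of 95 probes. The member count was 0 without any one of Stat6-/- replicates 1, 2, 5 and 6 or Stat6+/- replicates 3 and 5, and 2 without Stat6+/- replicate 6.

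Whole lung Stat6+/- against Epi+ gave 1 higher member and 0 lower of 78, where 2.4% of all probes were higher and 1.02% lower. The members' share was thus below that of all probes. Pcna read -0.35, 0.42, 0.69, 0.74 and 1.33 in Stat6+/- and -0.87, -0.71, -0.68, 0.04 and 0.26 in Epi+, overlapping through 1 Stat6+/- array, and rose by 0.76 ± 0.19, 1.70-fold (limma adjusted p = 0.0467). Pcna stayed called in 2 of the 10 fits with 1 array left out. No member was called without any one Epi+ array or without Stat6+/- replicates 3 or 5, and the count was 2 without Stat6+/- replicate 6. Pold1, the catalytic subunit of polymerase delta, lay the other way at -1.33 ± 0.37 (0.0735), and Cdk1 differed by 1.17 ± 0.36 (0.1). Macrophage markers were higher in Stat6+/- in 7 of 11 and mucous cell markers in 2 of 5, endothelial markers were lower in 2 of 5, and their part was not tested. Whole lung Epi+ against Stat6-/- gave 0 members, where 0.0746% of all probes were called. By unadjusted p 1 was higher and 1 lower, against 1.77% and 2.4% of all probes, and Pole4, a small subunit of polymerase epsilon, differed by -0.60, Tyms by 0.49 and Cenpw by -1.26 (0.983 for each). Without the 2 arrays low in Y-linked signal the count was also 0.

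Mcm3 was the 1 member for which the effect of Stat6 was called different between the tissues. Its difference of Stat6+/- from Stat6-/- was larger in whole lung than in perfusate by 0.97 ± 0.25 (limma interaction, adjusted p = 0.0186). It was 1 of 78 members tested, where 3.06% of all probes were higher and 1.25% lower. The members' share was thus below that of all probes. In whole lung Mcm3 read -0.18, 0.53, 0.57, 0.77 and 1.10 in Stat6+/- and -0.53, -0.33, -0.04, 0.05 and 0.23 in Stat6-/-. In perfusate it read -0.67, -0.40, -0.18, -0.04 and -0.02 in Stat6+/- and -0.31, -0.06, 0.01, 0.20 and 0.27 in Stat6-/-. Tissue goes with amplification and with the reference pool in these arrays, and these cannot be told apart in the levels. Tissue and amplification cannot be told apart in this difference either. Without the 5 arrays low in Y-linked signal the value was 0.93 ± 0.33 (0.206), and Cdk1 was called instead at 1.52 (0.0423), from 1.15 (0.0805) with all arrays. The count was 0 without perfusate Stat6+/- replicate 8. Orc3, of the origin complex, followed by p (0.89, 0.0892) and was not called. Macrophage markers had such a difference in 6 of 11 and mucous cell markers in 4 of 5, and their part was not tested. Of 95 probes of the wider list 5 had such a difference, against 3.06% of all probes. These were the thymidine kinase Tk1 (0.95, 0.00538), Cks1b (1.35), Nasp (0.99), Gins2 (2.56) and Gmnn (1.44). For Epi+ against Stat6-/- the tissues differed for 0 members, where 0.0976% of all probes were called, with 2 higher and 1 lower unadjusted, against 3.03% and 2.95%. Cdc6 (1.99 ± 0.57, 0.391), Cenpw and Tyms had the smallest p-values there, and the count was 0 without the arrays low in Y-linked signal too. Ccnd1, Ccnd2 and Cdkn1a, which act on the step from G1 to S phase, had 0 calls in the 14 comparisons, and the inhibitor Cdkn1b had 0 in those that tested it, which leave out whole lung OVA against PBS.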

How the data were processed

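The authors deposited 1 log2 ratio per spot, and raised to the power of 2 all of them (100%) were ratios of 3 decimals. The sources used here do not give the scanner, the background correction or any normalization. Each array was centred on its median and spots of 1 accession were averaged. Members are probes with 1 gene symbol that matches the rule. Models were fitted by exact least squares to the probes with a value on at least 3 arrays per group in 4 fits: perfusate (25 arrays, reference preparation as block), whole lung IL-13 (15, reference pool as block), whole lung OVA and PBS (10), and the tissue difference (40). Variances were moderated with limma 3.58.1 in R 4.3.3, and p-values were adjusted over all probes (Benjamini-Hochberg, called under 0.05). The fits were tested on simulated data. Promoters and plots were handled in Python 3.11.15 with pandas 2.3.3 and matplotlib 3.10.9.

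The text names every called member, the 3 with the smallest p in each comparison, and well-known cycle genes fixed as a list. Others are named where an array pattern or direction needed them. The rule for the members and the gene lists were drawn up with earlier results of these data known, although the rule itself reads only symbols. Other normalization, filter, block and probe settings, and each array left out, were tried. With 5 arrays per group, precision is limited by their number. The highest correlation between 2 arrays of 1 platform was 0.59 over 825 pairs, so no array was a copy. Correlations between whole lung arrays gave no sign that replicate numbers pair the samples, but the pairs were too few to exclude it.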

Additional observations from a re-analysis of the deposited data

Results flagged for a closer look

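Dixon's test was run on groups with a value on all 5 arrays, over 31 members and the members' median. In 28 of 289 such groups (9.69%) 1 array stood far from the rest. Chance gives about 1 in 20. Whole lung Epi+ replicate 6 was high for the members' median (0.24), Mcm6 (1.79), Ccnb2 (0.52) and Mcm5 (0.51), and replicate 3 was low for Rrm1 (-2.15). Of the Stat6-/- whole lung arrays, replicate 6 was low for Ccna2 (-3.49) and high for Kif20a (1.22), replicate 5 was low for Cenph (-2.17) and replicate 1 high for Top2a (0.78). Whole lung OVA replicate 5 was high for Cdk1 (3.35), and whole lung PBS replicate 3 was high for Mcm7 (0.55).

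In perfusate, PBS replicate 25 was low for Cdc45 (-0.80), Cdc6 (-1.05) and Orc1 (-1.58), and PBS replicate 26 was high for Ccna2 (1.41) and Ccnb2 (0.59). Stat6+/- replicate 6 was high for Ccnb2 (0.77), Mcm5 (1.18) and Rrm1 (0.0658), and Stat6+/- replicate 4 stood apart for Pole (-0.29). Stat6-/- replicate 10 stood apart for Aurka (2.25), Cdc45 (-0.88) and Tyms (1.29), replicate 13 for Mcm5 (-0.92) and replicate 11 for Orc1 (-0.29). Epi+ replicate 18 was low for Pola2 (-1.01) and Tyms (-3.72), and OVA replicate 31 was low for Cenph (-0.41).

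The difference of Stat6+/- from Stat6-/- in Mcm3 was larger in whole lung than in perfusate by 0.97 in the interaction test described above.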

How the results depend on the processing

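With 5 arrays per group, the calls of members changed more with the settings than their directions did. Across the named members, 532 values under other settings kept their direction and side of the threshold, 149 no longer passed and 3 newly passed. With 1 array left out the numbers were 669, 172 and 9, and none reversed.

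The called members (perfusate, in the order Stat6+/- against Stat6-/-, Stat6-/- against PBS, Stat6+/- against PBS, Epi+ against PBS, OVA against Stat6+/-) were 2, 1, 10, 2 and 21. They were 0, 0, 2, 0 and 8 with the values as deposited, 0, 0, 3, 0 and 10 without the reference block, and 0, 0, 0, 0 and 1 in fits of only the 2 groups compared. Without centring 128, 4, 311, 69 and 108 of all probes were called, against 529, 101, 1203, 478 and 603. Without the block these were 270, 16, 477, 107 and 199, and with only the 2 groups 69, 0, 4, 0 and 3. Stat6-/- against PBS gave 3 members under quantile normalization, 0 without reference preparation 1.3 and 0 without the arrays low in Y-linked signal. The last setting also gave 0 for Stat6+/- against Stat6-/- in perfusate and in whole lung. OVA against PBS in perfusate gave 0 under every setting.

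In whole lung, OVA against PBS gave 15 members, 2 as deposited (36 of all probes, against 299), 18 under quantile normalization (1 of them lower) and 22 with a value required on every array (1 lower). The tissue difference and the contrasts of Stat6+/- with Stat6-/- and with Epi+ had 1 member each, and these counts were 0 as deposited, 0 without the block and 0 under quantile normalization. Stat6+/- against Stat6-/- gave 0 with only the 2 groups and 2 with a value on every array. Stat6+/- against Epi+ gave 0 with at least 2 arrays per group and 0 with each spot as its own probe. With only the 2 groups it gave 1, a lower member. The tissue difference gave 0 without reference preparation 1.3. The cause of these changes was not tested.

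With the replicate block, whole lung OVA against PBS gave 0 members and 0 of all probes, Stat6+/- against Stat6-/- 0 and Stat6+/- against Epi+ 0. Same-numbered arrays correlated above 0.1 in 0 of 4 pairs of OVA with PBS and in 3 of 12 pairs among the IL-13 groups. Arrays with different numbers did so in 7 of 21 and 20 of 63 pairs. The same-numbered pairs are too few to decide whether the numbers pair the samples.

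With 1 array left out the members called ranged from 1 to 2 for Stat6+/- against Stat6-/-, from 0 to 3 for Stat6-/- against PBS, from 5 to 15 for Stat6+/- against PBS, from 0 to 6 for Epi+ against PBS and from 15 to 20 for OVA against Stat6+/- in perfusate. In whole lung they ranged from 3 to 15 for OVA against PBS and from 0 to 2 for Stat6+/- against Stat6-/- and against Epi+, and for the tissue difference from 0 to 3. Calls over all probes moved too, in the same perfusate order from 347 to 539, 12 to 547, 723 to 1452, 192 to 871 and 324 to 655. In whole lung they ran from 105 to 308, 470 to 1066 and 273 to 806, and for the tissue difference from 502 to 919. Centring removed shifts of group medians above 0.1 in 9 comparisons, the largest being -0.49 in the tissue difference of Stat6+/- from Stat6-/-, and log2 differences are relative to them.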
